A study of Mus musculus with 18 samples.

Results

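The fetal and newborn B lineage cells were hematopoietic progenitor (HP) cells of the bone marrow (BM) that carried RNA of early B cell genes. A cell was counted when it had 3 or more unique molecular identifiers (UMIs, each standing for 1 captured RNA molecule) summed over Cd79a, Ebf1, Pax5 and Vpreb1, and at least 2 of these 4 genes. By this rule 916 of 14997 HP cells from fetal and newborn BM were B lineage cells, out of 56201 cells in the whole data set. HPs had been sorted as CD45+Lineage-c-Kit+ cells from C57B6/J mice, and their RNA and surface antibody tags were read together in single cells (CITE-Seq). There were 2 HP libraries from embryonic day 16.5 (E16.5), and 1 each from E18.5, from the day of birth (P0) and from adult mice. E16.5, E18.5 and P0 are called perinatal here. Each library pooled mice, from several litters before adulthood, so that an animal cannot be told from another within a library. Nothing says that the E16.5 libraries came from separate mice. The p-values rest only on the spread between libraries, which may be technical and is in part taken over all genes. The labels name no treatment or transgene for any group, and give the adult stage without an age. B220, a B cell surface protein, was among the lineage stains, and the sort therefore set which B lineage cells could enter. All levels are for the sorted cells, not for whole BM.

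B cells begin as lymphoid progenitors in which the transcription factors Tcf3, Ebf1 and Pax5 turn on B cell genes in sequence. The recombinases Rag1 and Rag2 then join heavy chain gene segments of the immunoglobulin locus, and the new heavy chain is tested on the cell surface with the surrogate light chain, made of Vpreb and Igll1 proteins, and the signalling pair Cd79a and Cd79b. Cells that pass this test divide, switch to a true light chain and become IgM-bearing B cells. Before birth B cell formation is known for the RNA-binding protein Lin28b and for the near absence of terminal transferase (Dntt), the enzyme that adds untemplated bases at the joins.

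Of 18 genes fixed as the surrogate light chain and pre-B cell receptor list, 13 had a RefSeq promoter in the table used here (GRCm38.p6, 14 promoters). The E-box CAGGTG, the sequence that Tcf3 proteins prefer, was in 11 of these 14 windows of 250 bases before the start site, on either strand, against 17.2% of all 32851 promoters. Of 17 interferon-stimulated genes, some of which rose with stage below, 13 had 17 promoters. Of these, 7 held GAAA, then 2 bases of any kind, then GAAA again, a pattern like the interferon response element, on either strand. It was in 2.98% of all promoters and in 0 of the 14 B cell windows. A match describes the letters and says nothing of binding. The windows of 4 genes are shown, since the first 3 mark these cells and the last, Isg15, was the only 1 of the 7 interferon-stimulated genes called below whose window held the GAAA pattern. The windows of Ifitm3, Irf7 and Irf9 did not hold it, and Ifi27l2a, Rtp4 and Usp18 had no entry. Capitals mark the E-box in Vpreb1, Igll1 and Cd79a (in Igll1 the match lies on the other strand and reads CACCTG), and 3 overlapping matches of the GAAA pattern in Isg15. Vpreb1 lies at chr16:16869256-16869505 (minus strand), Igll1 at chr16:16863986-16864235 (minus strand), Cd79a at chr7:24897247-24897496 (plus strand) and Isg15 at chr4:156200819-156201068 (minus strand). The start sites of Vpreb1 and Igll1 are 5270 bases apart.
Vpreb1: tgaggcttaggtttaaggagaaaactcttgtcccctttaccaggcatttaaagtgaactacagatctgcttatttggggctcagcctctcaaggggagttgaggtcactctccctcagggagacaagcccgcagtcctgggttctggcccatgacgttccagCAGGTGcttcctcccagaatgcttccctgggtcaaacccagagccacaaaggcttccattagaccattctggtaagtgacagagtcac
Igll1: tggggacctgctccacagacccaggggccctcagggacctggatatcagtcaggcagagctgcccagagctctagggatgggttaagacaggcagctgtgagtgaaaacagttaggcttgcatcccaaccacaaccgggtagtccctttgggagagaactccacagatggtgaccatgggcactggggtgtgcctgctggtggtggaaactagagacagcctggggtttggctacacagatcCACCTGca
Cd79a: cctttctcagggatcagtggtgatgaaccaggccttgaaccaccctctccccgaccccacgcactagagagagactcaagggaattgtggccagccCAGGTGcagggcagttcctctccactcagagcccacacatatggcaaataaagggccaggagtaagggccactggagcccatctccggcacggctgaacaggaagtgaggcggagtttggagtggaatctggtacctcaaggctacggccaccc
Isg15: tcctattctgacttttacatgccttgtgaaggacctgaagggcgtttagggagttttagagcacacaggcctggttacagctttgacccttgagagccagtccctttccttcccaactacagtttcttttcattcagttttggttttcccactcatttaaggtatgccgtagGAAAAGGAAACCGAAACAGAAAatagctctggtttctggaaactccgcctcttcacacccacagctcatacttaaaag

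B lineage cells were a small part of perinatal HPs. They made up 30 of 560 cells (5.36%, 95% exact Clopper-Pearson interval 3.64 to 7.56%) in E16.5 library 1 and 203 of 4752 (4.27%, 3.71 to 4.89%) in E16.5 library 2. At E18.5 they were 198 of 3477 cells (5.69%, 4.95 to 6.52%). At P0 they were 485 of 6208 cells (7.81%, 7.16 to 8.51%). In the adult, the same rule found 1162 of 5985 (19.4%, 18.4 to 20.4%). These intervals cover counting error only. The shares were not tested between stages, each of which had 1 library except E16.5. The E18.5 interval overlapped that of E16.5 library 1 and lay just above that of library 2. The E18.5 share moved with shallow cells. In that library 27.5% of HP cells had under 1000 UMIs, none of them a B lineage cell, and without them the share was 7.86%. When every cell was thinned to 2000 UMIs the shares were 5.20%, 3.88%, 6.15%, 6.61% and 17.1% in the same order.

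**Figure D1:**
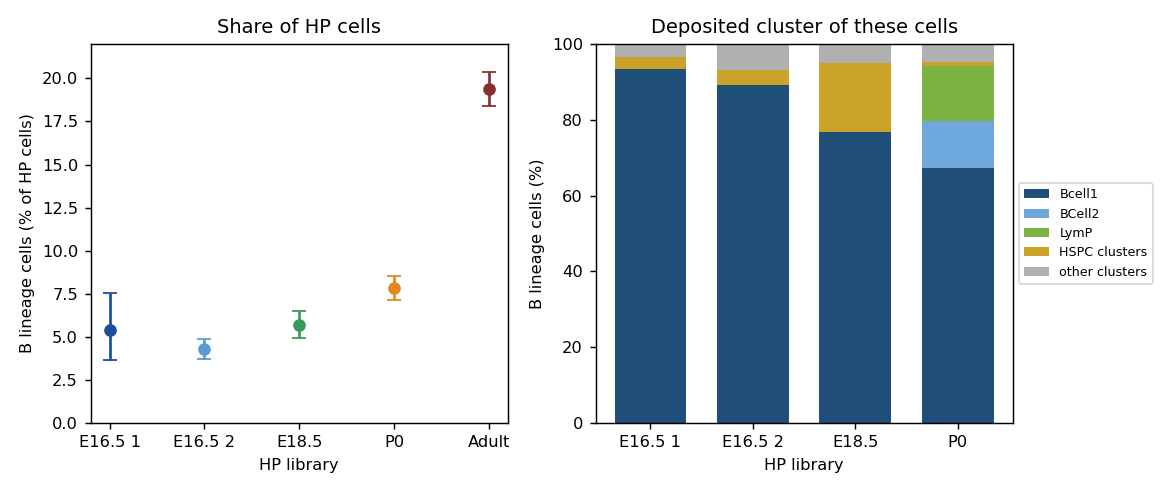
Left, share of HP cells that were B lineage cells (%, points) with 95% exact binomial intervals (bars) in each HP library. Right, deposited cluster of the perinatal B lineage cells (% of the cells in each library). The adult point, 19.4%, lies above all perinatal points, and the part outside the B cell clusters is larger at E18.5 and P0 than at E16.5.

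Depth differed between libraries. The median B lineage cell held 20066 UMIs (E16.5 library 1), 11354 (E16.5 library 2), 24696 (E18.5), 14418 (P0) or 3510.0 UMIs (adult). Summed over these cells the libraries held from 634874 UMIs (E16.5 library 1) to 7440329 UMIs (adult). Cell barcodes were shared between libraries: E16.5 library 1 shared 330 with the adult library and 153 with P0, and the partner cells in those were shallow (medians of 668 and 566 UMIs). Among the perinatal B lineage cells 13 were the shallower cell of such a pair, and 30 in the adult. Leaving them out, a choice made after seeing the data, gave 192 in place of 197 genes, 118 in place of 117 and 111 again in the tests below. RNA of other cell types was also uneven. T cell markers summed to 764 UMIs per 1000000 UMIs (CPM) in B lineage cells of E16.5 library 2 (67.7 in library 1, 201 at E18.5, 195 at P0) and to 4913 CPM in the other HPs of library 2. Mast cell markers summed to 5663 CPM there (80.3, 434 and 400.1 CPM in the others). Neutrophil markers reached 9596 CPM in adult B lineage cells, with 41824 CPM in the other adult HPs, and 0 to 782 CPM before adulthood. Values that moved with these lists stand beside the results below.

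**Figure D2:**
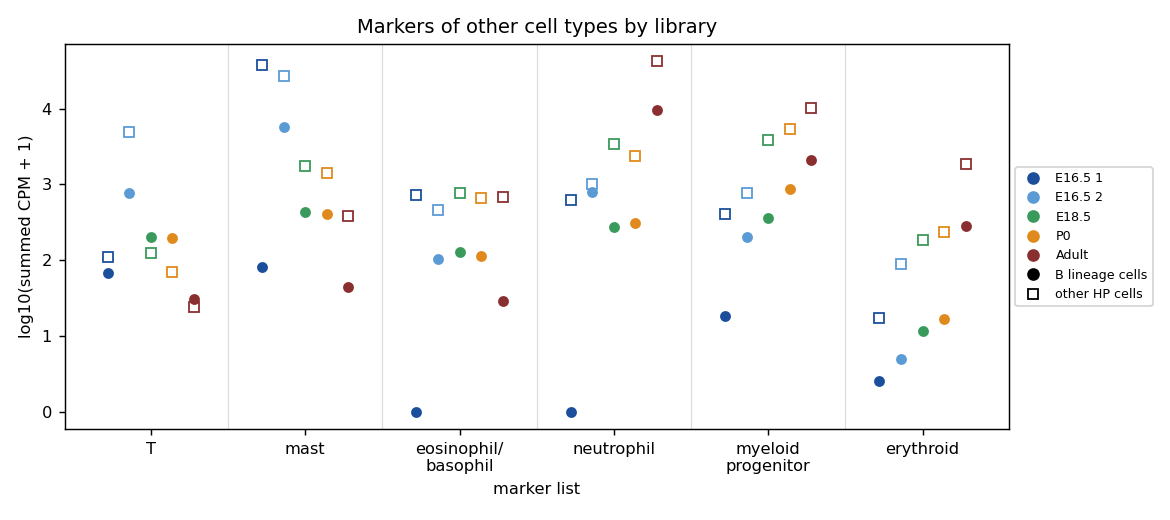
Summed level (log10 of CPM + 1) of marker lists of other cell types in B lineage cells (filled circles) and in the other HP cells (open squares) of each library. Mast and T cell RNA is highest in B lineage cells of E16.5 library 2, and neutrophil RNA in those of the adult.

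Other B cell genes were high in the same cells. Every gene of a cell is tied to the rule that chose it, so these levels are a description without a test. Of 2241 genes with at least 50 CPM in every perinatal library, 25 were over 10-fold higher in B lineage cells than in the other HPs of each library, and 11 over 100-fold. Both counts include the 4 rule genes, which are high by the choice of cells. Their lowest ratios were 913 (Pax5), 744 (Cd79a), 492 (Vpreb1) and 183 (Ebf1). Vpreb3, a light chain-like protein of early B cells, led with 2188, 1878, 1251 and 1455 CPM in E16.5 libraries 1 and 2, E18.5 and P0, against 0.258 to 1.32 CPM in the other HPs. Igll1 had 1468, 1286, 661 and 711 CPM against 0 to 1.02 CPM. Pou2af1 (a coactivator for immunoglobulin genes), Blnk (the adaptor below the pre-B cell receptor), Ighm (the mu heavy chain) and Cd79b were among the first 20 by the lowest ratio. So were Alpl, Cplx2, Cecr2, Akap12, Gfra2, Uchl1, Id3 and Arl5c, which are not standard B cell markers. Alpl, the alkaline phosphatase best known from bone, had 56.7, 84.9, 70.0 and 54.3 CPM against at most 0.234 CPM. Cplx2, a protein of vesicle release, had 411, 173, 198 and 203 CPM against at most 1.22 CPM.

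The 4 rule genes were far from their threshold in most cells. The median perinatal B lineage cell had 66.5 UMIs of them, and 66.3% of cells had all 4. Just inside the rule were 10 perinatal cells with 3 UMIs, none of which lay in a deposited B cell cluster. Just outside were 43 cells with 2 UMIs of 2 genes and 136 with 3 or more UMIs of 1 gene. Among the other perinatal HPs 8.55% had any UMI of these genes. In mast cells, which should lack them, Cd79a was found in 0.386%, 0.499%, 3.70% and 2.25% of cells of E16.5 libraries 1 and 2, E18.5 and P0, and Vpreb1 in 1.54%, 1.61%, 3.09% and 2.25%. The median mast cell there held 25921, 16625, 25714 and 1498.0 UMIs. After thinning to 2000 UMIs Cd79a was in 0% to 1.15% of mast cells, against 93.3%, 91.5%, 74.6% and 80.5% of B lineage cells. The shares in B lineage cells follow from the rule, which used Cd79a, and only those in mast cells describe the background. The mast cells were taken by cluster and include the few B lineage cells that lay in mast cell clusters.

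Surface antibodies gave a view that the rule did not use. On E16.5 library 2, the only perinatal library in which CD93 was read, CD93, a surface protein of immature B cells, averaged 10.5 tags in B lineage cells and 1.73 in the other HPs, and 197 of 203 B lineage cells had a tag (97.0%, 93.7 to 98.9%) against 74.0% of the others. CD90.2, a T cell protein, averaged 7.36 against 46.6 tags. The Fc receptors CD16 and CD32 averaged 2.98 against 14.3 tags, IL33R, carried by mast cells, 0.931 against 1.95, and CD43, a sialoprotein of early B cells and other leukocytes, 15.5 against 22.2. These means are not corrected for the total tags of a cell. As a share of all tags CD43 was higher in B lineage cells (28.4% against 20.8%) and IL33R nearly equal (1.70% against 1.82%). CD93 (19.2% against 1.62%), CD90.2 (13.4% against 43.6%) and CD16 and CD32 (5.44% against 13.3%) kept their direction. CD150, a stem cell and megakaryocyte marker, averaged lower in B lineage cells in 4 of 4 perinatal libraries, at ratios of the means of 0.357, 0.711, 0.660 and 0.233. The medians did not show this: they were 6.50 against 7.00 tags in E16.5 library 1, 1.00 in both in E16.5 library 2 and at P0, and 3.00 against 2.00 at E18.5. As a share of all tags CD150 was higher in B lineage cells of E16.5 library 2 (1.47% against 1.06%) and lower in the other perinatal libraries. CD135, the Flt3 receptor, had a lower mean in E16.5 library 1 (ratio 0.374) and a higher one in the others (1.22, 1.69 and 1.79), with equal medians in each library. Ly6AE, the Sca-1 protein, had ratios of the means of 0.436, 0.648, 0.812 and 0.886, but in E16.5 library 2 its share of all tags was higher (1.42% against 1.12%). Its medians mostly went the other way. They were 5.00 against 4.00 tags in E16.5 library 1, 4.00 against 3.00 at E18.5 and 7.00 against 3.00 at P0. In E16.5 library 2 they were 0 against 1.00. With 4 libraries an exact two-sided sign permutation cannot go below p = 0.125, so these ratios are given without a test.

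Most of the cells were already grouped as B cells by the deposited clusters, which were made from the same RNA. All 28, 181, 152 and 326 cells of the cluster Bcell1 in library order and all 61 of BCell2, found at P0, met the rule. Together these were 81.7% of the perinatal B lineage cells. At E18.5 the cells elsewhere were chiefly 36 of 388 cells of HSPC2 (9.28%, 6.58 to 12.6%), a stem and progenitor cluster. At P0 they were chiefly 70 of 388 cells of LymP (18.0%, 14.3 to 22.2%). In E16.5 libraries the HSPC1 cluster gave 1 of 33 and 8 of 165 cells.

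The B lineage cells of HSPC2 and LymP had similar levels to each other and others than Bcell1. They had little surrogate light chain RNA. Igll1 was at 7.08 CPM in HSPC and 7.21 CPM in LymP cells against 913 and 842 CPM in Bcell1 of the same libraries. Vpreb1 was at 19.2 and 24.3 CPM against 1367 and 1430.2 CPM. Lef1, a transcription factor of early B and T cells, was at 0 in both against 208 and 224 CPM. Ebf1 (562 and 501 CPM), Rag1 (164 and 142 CPM) and Il7r, the interleukin-7 receptor (259.9 and 280.3 CPM), were present. Genes of lymphoid progenitors were high. Flt3, a cytokine receptor of early progenitors, had 184 and 167 CPM against 17.0 and 30.6 CPM in Bcell1. Cd34, a progenitor surface protein, had 142 and 136 CPM against 6.78 and 19.3 CPM. Notch1 had 218 and 242 CPM against 51.7 and 38.2 CPM. Ccr9, a receptor that guides cells to the thymus and gut, had 72.8 and 151 CPM against 1.70 and 7.78 CPM. Hmga2, a fetal growth gene, had 444 and 516 CPM against 48.6 and 63.4 CPM. These are descriptions, since the clusters came from these genes.

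BCell2 at P0 stood at the other end. Its 61 cells were shallow, with a median of 3499.0 UMIs against 15440.0 in Bcell1. Vpreb1 reached 4823 CPM and Vpreb3 5297 CPM, against 1430.2 and 1662 CPM in Bcell1. Proliferation genes were low: Mki67, present in dividing cells, was at 49.5 CPM against 644 CPM, and Top2a, which untangles replicated DNA, at 78.3 against 1032 CPM. Igkc, the kappa light chain, was at 326 against 10.7 CPM, Rag1 at 420.5 against 176 CPM, Cd69, an early activation receptor, at 717 against 112 CPM and Ltb, lymphotoxin beta, at 709 against 81.2 CPM. Cd72, a B cell co-receptor, was at 157 against 16.5 CPM.

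**Figure D3:**
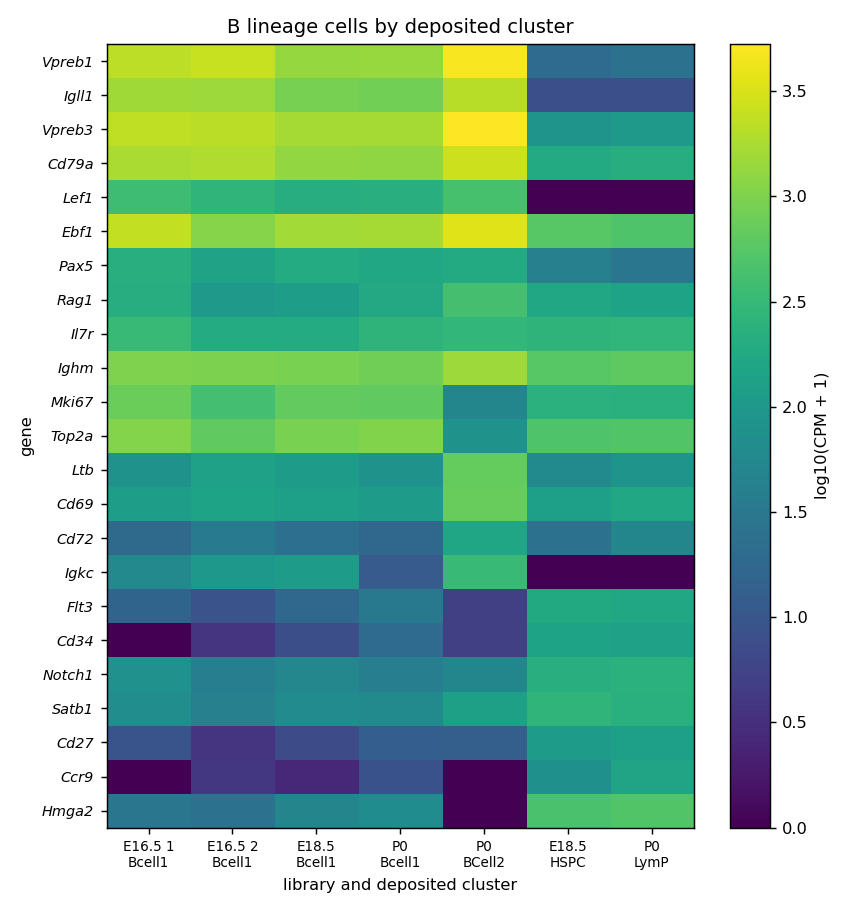
Levels (log10 of CPM + 1) of genes (rows) in B lineage cells of each library and deposited cluster (columns), with HSPC standing for the HSPC clusters. Surrogate light chain genes are brightest in P0 BCell2, while Flt3, Cd34, Ccr9 and Hmga2 are brightest in the HSPC cells of E18.5 and the LymP cells of P0.

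Stage differences were tested on UMIs summed per library, because cells of a library are not replicates. The E16.5 pair gave the only residual degree of freedom, and the lone E18.5 and P0 libraries were assumed to vary like it. With so few, the fit takes much of a gene's spread from all genes. A small p-value therefore need not mean that the pair was alike. Cd3g had 0 and 178 CPM in the pair, yet its log2 difference of -8.30 at P0 had an SE of 0.72. Here fewer expressing cells and less RNA per cell cannot be told apart. By edgeR's quasi-likelihood test with Benjamini-Hochberg adjustment, 117 of 11527 genes (1.02%) passed for P0 against E16.5. Of these 76 (0.659%) rose and 41 (0.356%) fell. For E18.5 against E16.5, 111 (0.963%) passed, of which 73 (0.633%) rose and 38 (0.330%) fell. Both comparisons share the E16.5 libraries, and their values are given side by side. These counts depended on the tool: DESeq2 called 7 and 8 genes, and none passed edgeR once every cell was thinned to 2000 UMIs (237 and 251 genes were then under an unadjusted p of 0.05).

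None of the 18 surrogate light chain and pre-B cell receptor genes and none of 21 B cell transcription factors was called in either comparison. With 1.02% and 0.963% of all genes called, lists of this size would hold few calls or none at the background share, so that nothing is read from these counts. The lists hold the 4 rule genes, whose levels helped to choose the cells and are given as a description. Vpreb1 had 2133 and 2213 CPM at E16.5, then 994 CPM at E18.5 and 1265 CPM at P0. Igll1 (1468, 1286, 661 and 711 CPM) and Cd79a (1684, 1647, 993 and 1090.1 CPM) were also highest in both E16.5 libraries. For Igll1, which is no rule gene, the log2 difference of P0 from E16.5 was -0.86 with SE 0.51 (edgeR, adjusted p = 1.00). Vpreb2 is nearly identical to Vpreb1 in sequence, so the reads of the pair may be split between them and each level is uncertain. Ebf1 had 2308 and 950.0 CPM in the E16.5 libraries, with E18.5 (1323 CPM) and P0 (1459 CPM) between them. Pax5 had 213 and 117 CPM, then 152 and 135 CPM. Rag1 had 198, 106, 126 and 168 CPM and Il7r 306, 184, 201 and 251 CPM.

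Of 17 interferon-stimulated genes tested, 7 rose from E16.5 to P0 and the same 7 to E18.5, beside 0.659% and 0.633% of all genes. The other 10 did not pass, and none was called lower. The median log2 difference over the list was 2.37 at P0 and 1.98 at E18.5, while the medians over all genes were -0.0 and 0.01. The filter on low counts kept a gene that was high in a single library. Usp18, called here, and Ifit3, at 0 CPM in the E16.5 cells, therefore entered through other libraries, so the counts and medians are a description. Ifitm3, a membrane protein that blocks virus entry, had 7.88 and 51.2 CPM at E16.5, then 130.5 CPM at E18.5 and 170.1 CPM at P0. Its log2 difference was 2.37 with SE 0.42 at P0 (edgeR, adjusted p = 9.53e-06) and 1.98 with SE 0.42 at E18.5 (adjusted p = 0.000931). Rtp4, an interferon-induced chaperone, had 7.88 and 7.11 CPM, then 47.0 and 47.2 CPM, with log2 differences of 2.75 with SE 0.46 at P0 (edgeR, adjusted p = 1.72e-06) and 2.74 with SE 0.47 at E18.5 (adjusted p = 3.37e-06). Neither overlapped between E16.5 and the later stages, which held for 18.5% of all genes in this direction. Isg15, the ubiquitin-like protein whose promoter is shown above, had 4.73 and 7.82 CPM, then 44.8 and 36.8 CPM, and a UMI was found in 1 of 30 and 18 of 203 cells at E16.5 against 66 of 198 at E18.5 and 137 of 485 at P0. Irf7, the master factor of the interferon response, had 1.58 and 2.49 CPM, then 16.3 and 24.7 CPM. Irf9, part of the complex that carries the interferon signal to DNA, had 12.6 and 8.17 CPM, then 29.3 and 31.0 CPM. Ifi27l2a had 14.2 and 10.3 CPM, then 85.1 and 134 CPM. Usp18, which removes Isg15 from proteins, had 1.58 and 1.07 CPM, then 11.6 and 10.1 CPM.

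Among B lineage cells of the deposited B cell clusters alone, 7 of 16 interferon genes tested were called higher at P0, the same genes, and 7 at E18.5, with Ifitm1 in place of Irf7. Of all genes 0.678% and 0.585% were called higher in these cells. Rtp4 was at 8.29 and 3.95 CPM in these cells at E16.5, then at 29.7 CPM and 38.8 CPM. HSPC2 and LymP cells had more, with Rtp4 at 101 and 99.1 CPM and Isg15 at 87.0 and 85.6 CPM. In the other HPs of the same libraries Rtp4 was at 14.2 and 15.0 CPM, then 37.3 and 38.9 CPM, and Irf7 at 11.0, 6.43, 27.5 and 26.8 CPM, higher after E16.5 as well. That did not hold for the whole list there: its 17 genes summed to 2337 and 2481 CPM at E16.5, 2899 CPM at E18.5 and 2089 CPM at P0, and Ifi27l2a was at 104, 4.12, 153 and 72.0 CPM. In the B lineage cells the sums were 465, 856, 1193 and 1299.6 CPM. DESeq2 called only Ifi27l2a at either stage, and no interferon gene of the 11 tested passed in thinned cells, where the median log2 differences were 1.81 at P0 and 1.85 at E18.5. Adult B lineage cells had 14.2 CPM of Rtp4, 24.2 CPM of Isg15 and 326 CPM of Ifi27l2a, and no interferon gene was called between perinatal and adult cells in all libraries by edgeR with the filter on low counts. Ifi27l2a was called lower in perinatal cells without that filter, after thinning (where Ifitm1 was called higher) and without the P0 library.

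**Figure D4:**
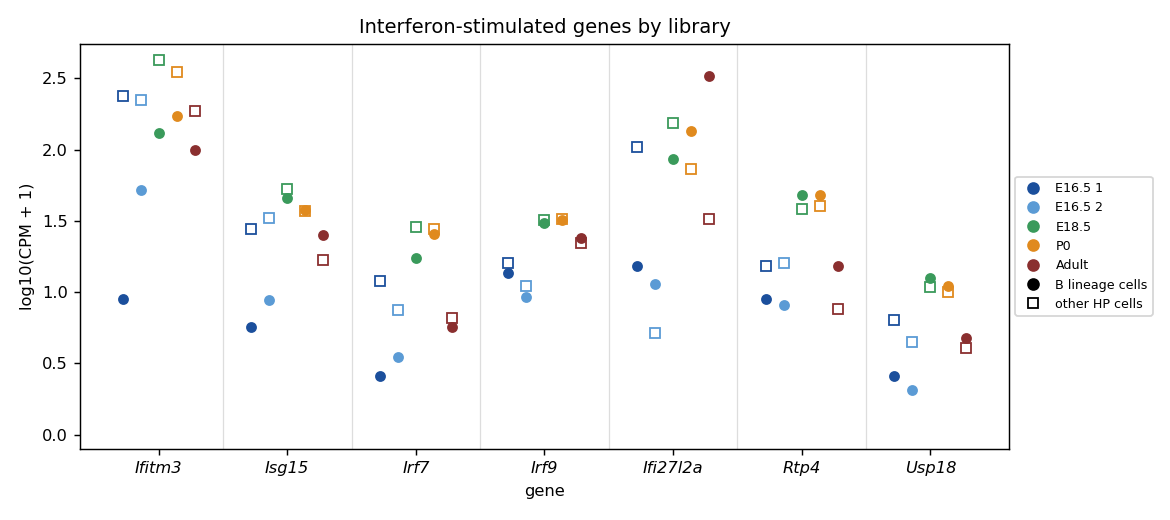
Levels (log10 of CPM + 1) of the 7 interferon-stimulated genes called at both later stages, in B lineage cells (filled circles) and the other HP cells (open squares) of each library. In B lineage cells, E18.5 and P0 lie above both E16.5 libraries for each of these genes, which were chosen for being called higher, as for Rtp4 with 47.0 and 47.2 against 7.88 and 7.11 CPM.

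Some lymphoid progenitor genes rose. Of 12 tested, 4 were called higher at P0 (Flt3, Dntt, Cd34, Ly6a) and 3 at E18.5 (Flt3, Dntt, Cd34), beside 0.659% and 0.633% of all genes. Differences were above 0 for 12 of 12 at P0 and 9 of 12 at E18.5. Flt3 had 23.6 and 16.0 CPM at E16.5, then 57.8 and 52.1 CPM, with log2 differences of 1.57 with SE 0.42 at P0 (edgeR, adjusted p = 0.0233) and 1.71 with SE 0.42 at E18.5 (adjusted p = 0.00869). Cd34 had 12.6, 15.3, 45.8 and 44.8 CPM. Neither Flt3 nor Cd34 overlapped between E16.5 and later stages, which held for 18.5% of all genes in this direction. Ly6a, which encodes Sca-1, had 15.8, 7.11, 21.0 and 39.7 CPM. The share of B lineage cells outside the B cell clusters, where Flt3 and Cd34 are high, was larger at E18.5 and P0 as well. Within the B cell clusters Flt3 (log2 1.65, edgeR adjusted p = 0.0194) and Cd34 (log2 3.24, adjusted p = 6.92e-05) were still called at P0, with Ly6a, and no gene of the list was called at E18.5. Of 17 interleukin-7 and cytokine receptor genes, only Flt3 passed, at both stages. Among 16 homing and adhesion genes only Ccr9 did, at P0 (7.88, 8.53, 17.9 and 29.7 CPM, edgeR adjusted p = 0.0071), and not within the B cell clusters (adjusted p = 0.846).

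Dntt was at or near 0 in perinatal cells. No UMI was found in the E16.5 libraries, which allows up to 0.870 CPM over both, so that Dntt entered the stage tests through other libraries. It had 5.50 CPM at E18.5 and 5.47 CPM at P0, at least 6.32-fold and 6.29-fold higher than that limit. The E18.5 level rested on 5 cells, with 22 of 27 UMIs in 1 HSPC2 cell, and none of the 5 cells was in a B cell cluster. Without that 1 cell the level was 1.02 CPM. At P0 24 of 485 cells had a UMI. Within the B cell clusters neither stage passed. In the adult, 631 of 1162 cells had a UMI and the level was 410.5 CPM, at least 472-fold over the E16.5 limit.

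Of 10 genes of antigen presentation, 4 rose at P0 (Cd74, the chaperone of MHC class II, with H2-Aa, H2-Eb1 and H2-DMa) and 1 at E18.5 (Cd74), beside 0.659% and 0.633% of all genes. H2-Aa went from a log2 difference of 2.25 to -0.23 at P0 with a stricter rule of 5 or more UMIs and 3 rule genes, under which Cd74 (0.05) and H2-Eb1 (1.22) were not called either. Cd74 was at 0 and 19.2 CPM at E16.5, 55.2 CPM at E18.5 and 59.8 CPM at P0 (edgeR, log2 2.25 with SE 0.46, adjusted p = 0.000248). At P0 82.4% of its UMIs came from 3 cells, the highest of them in the dendritic cell cluster DC3, and at E18.5 69.4% came from 3 cells. In B cell clusters Cd74 was at 7.98 CPM at P0 and was not called (adjusted p = 0.959), where H2-DMa was (log2 2.41, edgeR adjusted p = 0.00461). At E18.5 Cd74 was at 71.2 CPM in those clusters and was called with H2-Aa and H2-Eb1, although 115 of its 271 UMIs lay in 1 Bcell1 cell. Prg2, an eosinophil granule protein, had the largest fitted rise at both stages (0 and 0, then 87.7 and 76.7 CPM), yet 416 of 431 UMIs at E18.5 and 414 of 561 at P0 came from 1 cell each. Without that cell the levels were 3.09 and 20.1 CPM. Of 10 myeloid genes, Mpo, Elane, Prtn3 and Ctsg, enzymes of granule-forming cells, rose at P0, and Mpo and Ctsg at E18.5. Mpo went from 12.6 and 28.8 CPM to 142 and 309 CPM, while in the other HPs it went from 82.9 and 162 to 1222 and 1623 CPM. The part of these other cells' RNA in the result was not tested.

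Of 15 genes of B cell maturation, 3 rose (Ms4a1, Iglc1, Iglc3) and 1 fell (Il2ra) at E18.5, beside 0.633% and 0.330% of all genes, and 12 of 15 were above 0 with a median log2 difference of 1.27. At P0 none rose and 2 fell (Igkc, Il2ra), beside 0.659% and 0.356%, with a median of 0.54. Ms4a1, which encodes CD20, was at 1.58, 6.04, 24.2 and 1.23 CPM, so that E18.5 stood above the rest (edgeR, log2 2.34 with SE 0.50, adjusted p = 0.000915), and a UMI was found in 25 of 198 E18.5 cells against 5 of 485 at P0. Iglc1 and Iglc3, lambda light chain constant genes, rose at E18.5 from few cells (2 and 7). They were at or near 0 at E16.5 and entered through other libraries. Igkc was lower at P0 (55.1, 87.4, 83.3 and 18.9 CPM, edgeR, log2 -1.88 with SE 0.51, adjusted p = 0.0268), which was not called within B cell clusters. Il2ra fell at both stages and rested on E16.5 library 2 (0 and 24.5, then 0.204 and 0.547 CPM), where it was at 207 CPM in the other HPs. None of 6 B-1 cell genes passed between stages.

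Tubb3, a tubulin best known from neurons, was among the 10 largest falls from E16.5 to P0. It had 78.8 and 47.2 CPM at E16.5, then 19.9 and 4.51 CPM (edgeR, log2 -3.64 with SE 0.51, adjusted p = 7.96e-10), and 0.269 CPM in the adult. A minority of cells held it: 7 of 30 and 38 of 203 at E16.5, 22 of 198 at E18.5 and 17 of 485 at P0. The top 3 cells held 86.0%, 26.3%, 48.0% and 48.5% of its UMIs in the same order. In the other HPs it was under 1 CPM except in E16.5 library 2 (31.2 CPM). The fall was as large within B cell clusters (log2 -3.53). Igf2bp1, a fetal RNA-binding protein, was at 25.2 and 25.2 CPM, then 10.4 and 4.79 CPM, and fell at P0 (edgeR, log2 -2.31 with SE 0.52, adjusted p = 0.00199). Ighg2b, an immunoglobulin gamma heavy chain gene, fell at E18.5 (80.3 and 78.9, then 24.2 CPM, and 37.7 CPM at P0, edgeR adjusted p = 0.0227). It was under 0.1 CPM in the other HPs, and did not pass within B cell clusters (adjusted p = 0.183). Pcp4l1 had 75.6, 74.2, 23.0 and 40.3 CPM and also fell at E18.5. Ifi27, an interferon-induced gene outside the list, rose at P0 (64.6, 68.9, 172 and 298 CPM, edgeR adjusted p = 8.89e-05), and Mt1, a metal-binding protein, did so too (12.6, 25.9, 43.8 and 77.5 CPM). In the other HPs Mt1 was at 201, 66.8, 459.6 and 793 CPM, and Ifi27 at 20.3, 40.7, 58.4 and 123 CPM. Most of the other named falls were of T cell genes (Cd3g, Trbc1, Gzma) and mast cell genes (Cma1, Tpsb2, Cpa3, Prss34, Hdc). Cd3g had 0 and 178, then 0 and 0.273 CPM, and Tpsb2 22.1 and 967, then 46.8 and 48.0 CPM. Basp1 behaved likewise (4.73 and 121, then 28.7 and 20.9 CPM). In B lineage cells each of these genes was highest in E16.5 library 2, as were the T and mast cell sums (5663 CPM of mast cell markers against 80.3 CPM in library 1), while the other HPs held 38141 CPM of mast cell markers in library 1 and 27106 CPM in library 2. The part of that RNA in the result was not tested.

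Of 23 cell cycle genes tested, 1 rose at E18.5, beside 0.633% of all genes. This was Ccnd2, a cyclin that starts division (50.4, 35.2, 113 and 74.7 CPM, edgeR adjusted p = 0.0369), and it was not called within the B cell clusters (adjusted p = 0.211). No other passed at either stage, and at the background share few calls or none fall to a list of this size. After thinning, these genes took 0.697%, 0.532%, 0.505% and 0.534% of UMIs in B lineage cells in library order, with SDs over cells of 0.514, 0.359, 0.336 and 0.327, against 0.180%, 0.303%, 0.245% and 0.280% in the other HPs. In the adult the shares were 0.405% and 0.269%. B lineage cells were higher in 5 of 5 libraries. Among the 10 largest rises at E18.5 were 4 replication-dependent histone genes (Hist1h4c, Hist1h3i, Hist1h2af, Hist1h4h). Hist1h4c had 26.8, 5.33, 58.6 and 36.5 CPM (edgeR adjusted p = 0.000236 at E18.5 and 0.0424 at P0), and Hist1h3i had 28.4, 9.24, 60.3 and 47.3 CPM. In the other HPs Hist1h3i had 4.72, 5.30, 28.6 and 17.6 CPM. AC160336.1, a gene known by its clone name, rose too (153, 140.0, 521 and 419.8 CPM).

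Perinatal and adult B lineage cells differed at 197 of 11527 genes (1.71%), of which 41 were higher (0.356%) and 156 lower (1.35%) in perinatal cells. The spread was taken over the 4 perinatal libraries, stages included, with 3 residual degrees of freedom, and the lone adult library was assumed to vary like them. Without E16.5 library 2 the count was 422. In cells thinned to 2000 UMIs the split was 75 higher and 199 lower, and with DESeq2 117 and 128. The adult stage and the adult library cannot be told apart.

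Of 9 genes of fetal growth and RNA binding tested, from a list of 12, 4 were called higher before adulthood (Lin28b, Igf2bp3, Hmga2, H19), beside 0.356% of all genes. The other 5 did not pass, but 4 of them were called in other settings. Igf2bp1, Igf2bp2 and Arid3a were called higher by DESeq2, without a filter on low counts and, with Dlk1, without E16.5 library 2. All 9 had differences above 0, as did 5867 of all 11527 genes. The median log2 difference was 2.93 against 0.01 over all genes. The filter on low counts kept a gene that was high in a single library. Genes near 0 in the adult, such as Lin28b, therefore entered through the perinatal libraries, and this count and median are a description. Lin28b, which holds back let-7 microRNAs, had 55.1, 28.1, 22.6 and 23.7 CPM in E16.5 libraries 1 and 2, E18.5 and P0, and no UMI in 7440329 adult UMIs, at least 63.0-fold higher than the limit of 0.403 CPM. It was found in 18 of 30 cells of E16.5 library 1 and 129 of 485 cells at P0. H19, an imprinted noncoding RNA, had 131, 106, 116 and 55.0 CPM against 0.538 CPM (edgeR, log2 7.25 with SE 0.70, adjusted p = 0.000705). In the other HPs H19 went from 185 and 304 CPM at E16.5 to 18.5 CPM at E18.5 and 5.03 CPM at P0, so that at birth it was higher in the B lineage cells. Hmga2 had 56.7, 59.7, 142 and 131 CPM against 2.28 CPM, and within the B cell clusters 28.2, 24.1, 48.6 and 60.7 against 0.851 CPM (edgeR, log2 5.39, adjusted p = 0.00105). Igf2bp3, an RNA-binding partner of the Lin28b programme, had 85.1, 98.1, 92.8 and 107 CPM against 22.4 CPM (edgeR, log2 1.89 with SE 0.29, adjusted p = 0.0106). All 4 perinatal libraries were above the adult for each of these 4 genes, which were chosen for being called higher, and for 37.6% of all genes. Igf2bp1 had 0.134 CPM in the adult and missed the threshold (edgeR, log2 6.27 with SE 1.36, adjusted p = 0.052), but was called within B cell clusters (adjusted p = 0.00755). Igf2 had no UMI in any B lineage cell.

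Of 15 genes of B cell maturation, 6 were called lower in perinatal than in adult cells (Igkc, Iglc1, Iglc2, Iglc3, Ighd, Fcer2a) and none higher, beside 1.35% and 0.356% of all genes. Differences were below 0 for 13 of the 15 and above 0 for 2, with a median log2 difference of -2.38. Iglc2 and Fcer2a, near 0 in every perinatal library, entered through the adult library where they are high, as did Ciita below. The count of 6 and this median are therefore a description. Iglc2, a lambda light chain, had 0, 0, 0.204 and 1.23 CPM against 291 CPM in the adult (edgeR, log2 -9.01 with SE 0.46, adjusted p = 6.68e-06). Igkc, the kappa light chain, had 55.1, 87.4, 83.3 and 18.9 CPM against 588 CPM, but the other adult HPs also held 403 CPM, against at most 0.217 CPM in the perinatal ones. In the adult, 927 of 2165 Iglc2 UMIs and 1567 of 4377 Igkc UMIs lay in 1 cell each. Without that cell the adult levels were 167 CPM of Iglc2 and 378 CPM of Igkc. Ighd, the delta heavy chain, had 18.9, 11.4, 11.6 and 12.3 CPM against 34.9 CPM. Fcer2a, a low-affinity IgE receptor, was near 0 before adulthood (0 to 0.407 CPM) and at 9.54 CPM in the adult. Ciita, the switch of MHC class II genes, was the only 1 of 10 such genes called in all B lineage cells (0 to 1.09 against 8.60 CPM), while Cd74, at 0 to 59.8 against 308 CPM, missed the threshold (edgeR, log2 -3.20 with SE 0.69, adjusted p = 0.052). All 10 differences were below 0. Among cells of the deposited B cell clusters 6 of the 10 were called lower (Ciita, Cd74, H2-Aa, H2-Eb1, H2-DMb2 and H2-Ob), beside 2.42% of all genes there, as they were without a filter on low counts, and 5 were without E16.5 library 2 or without P0. No share over all genes is given for these last settings, so nothing is read from their counts.

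Of the 18 surrogate light chain and pre-B cell receptor genes 3 were lower before adulthood, beside 1.35% of all genes. That share also stands beside the counts of lower genes that follow from the main fit. Within the B cell clusters 2.42% of all genes were called lower. Calls named for other settings have no such share beside them, and the number of genes called differed between settings. Lyn, a kinase below the receptor, had 55.1, 49.4, 56.2 and 57.0 against 96.9 CPM (edgeR, log2 -1.04 with SE 0.22, adjusted p = 0.0495), and was no longer called under the stricter rule, without E16.5 library 1, without E18.5, without P0, without cells under 1000 UMIs or without the shallower cells of shared barcodes. Pik3ap1, an adaptor for PI3 kinase, had 18.9, 11.7, 7.33 and 9.71 against 28.0 CPM, and was not called by DESeq2, without E18.5 or without P0. Cd72 had 17.3, 31.6, 21.8 and 26.8 against 76.6 CPM. Blnk had 154, 138, 88.8 and 115 against 219.6 CPM and was not called in the main fit. It was called lower within the B cell clusters, without a filter on low counts, after thinning and without E16.5 library 2. Igll1 was above the adult level of 464 CPM in 4 of 4 libraries, which held for 37.6% of all genes. It did not pass (edgeR, log2 0.91 with SE 0.44, adjusted p = 0.343). Of 21 transcription factors, Bach2, which restrains plasma cell fate, was lower (52.0, 41.2, 27.5 and 32.7 against 117 CPM, edgeR adjusted p = 0.00719), as was Ikzf3, a factor of the Ikaros family (0, 3.20, 5.09 and 1.23 against 26.2 CPM). Dntt was the only 1 of 12 V(D)J recombination genes called (edgeR, log2 -6.90 with SE 0.59, adjusted p = 0.000318). Rag1 had 198, 106, 126 and 168 against 87.0 CPM and did not pass (adjusted p = 0.464). Of 12 lymphoid progenitor genes Ly6d, which marks B-committed progenitors, was lower with Dntt (113, 83.8, 129 and 129 against 409 CPM). Notch1 of the same list was called higher by DESeq2, without a filter on low counts and without E16.5 library 2, but not in the main fit. Of 10 myeloid genes Lyz2 was lower (29.9, 22.4, 24.8 and 42.7 against 134 CPM), beside the neutrophil RNA of the adult library. Within the B cell clusters Lyz2 was not called (adjusted p = 0.190) and Elane was (0, 0.877, 5.93 and 25.5 against 90.2 CPM, edgeR adjusted p = 0.0200). Without the P0 library 5 myeloid genes were called lower (Mpo, Elane, Prtn3, Lyz2, Ctsg), as they were after thinning. Ccr9 was the only homing gene higher, at a ratio of 31.7 of the summed perinatal to the adult level. Its summed perinatal level was 21.3 CPM in all B lineage cells and 4.56 CPM in the B cell clusters, where it was not called (edgeR, log2 6.77, adjusted p = 0.0839), nor was it under the stricter rule. No cytokine receptor, cell cycle or B-1 gene passed in all B lineage cells. Ccnd2 was called lower within the B cell clusters (29.8, 22.8, 59.1 and 55.5 against 116 CPM, edgeR adjusted p = 0.0341), and Mcm5, a replication helicase subunit, higher by DESeq2. Arid3a, a B cell transcription factor of the B-1 list, had 118, 61.5, 65.7 and 57.6 against 24.2 CPM. It missed the threshold by edgeR (log2 1.35 with SE 0.36, adjusted p = 0.104) but was called higher by DESeq2, without a filter on low counts, after thinning and without E16.5 library 2. Bcl2, a survival protein in the cytokine list, had 15.8, 14.2, 12.4 and 13.1 against 26.6 CPM (edgeR adjusted p = 0.0506) and was called lower in the last 3 of these settings.

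**Figure D5:**
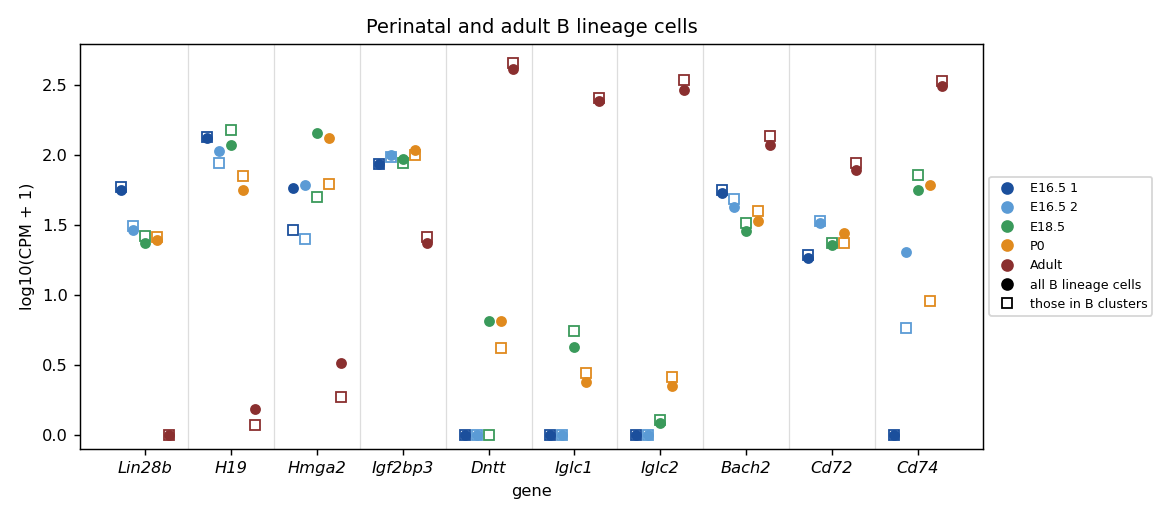
Levels (log10 of CPM + 1) of genes that differ between perinatal and adult B lineage cells, with Cd74, which missed the threshold, for all B lineage cells (filled circles) and those in the deposited B cell clusters (open squares). Lin28b is at 0 in the adult, and Iglc2 reaches 291 CPM there (167 CPM without its highest cell) against at most 1.23 CPM before.

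Outside the lists, the largest differences upwards beside H19, Hmga2 and Igf2bp3 were Trbc2, Klk8, Lsp1, Alpl, Pfkl, Grhpr and Eno1. Trbc2, a T cell receptor constant gene, had 42.5, 306, 170.0 and 152 against 2.82 CPM, and within the B cell clusters 43.1, 115, 101 and 119.9 against 2.89 CPM. Cd3g, a T cell receptor partner, was at 0 to 0.273 CPM in the perinatal libraries other than E16.5 library 2. Lsp1, a cytoskeletal protein of leukocytes, had 353, 336, 285 and 296 against 72.4 CPM. Alpl had 56.7, 84.9, 70.0 and 54.3 against 16.4 CPM, and Pfkl, an enzyme of glycolysis, 55.1, 58.6, 51.5 and 61.8 against 16.8 CPM. Eno1, another glycolytic enzyme, had 397, 326, 309 and 301 against 99.3 CPM. The perinatal values of these genes lay close together and above the adult, except that Trbc2 varied widely. Downwards, Chil3, Ltf and Ngp (neutrophil genes), Hba-a1 and Car1 (red cell genes) and H2-Q7 and Lars2 stood among the first 10 with Iglc1, Iglc2 and Dntt. Chil3, Ltf, Hba-a1 and H2-Q7, at or near 0 in every perinatal library, passed the filter on low counts through the adult library. Chil3 was at 524, Ltf at 564 and Ngp at 2805 CPM in the other adult HPs, higher than in the adult B lineage cells (106, 101 and 496 CPM). Lars2 had 41.2 to 154 CPM before and 4387 CPM in the adult, where the ribosomal repeat transcript Gm42418 took 10.1% of UMIs against 0.194 to 0.445%. H2-Q7 was at 63.2 CPM in the adult B lineage cells and 40.5 CPM in the other adult HPs, and at most 2.05 CPM in any perinatal cells. The part of neutrophil, red cell or ribosomal RNA in these results was not tested.

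A final test asked whether perinatal and adult cells differed more, or less, among B lineage cells than among the other HPs. By edgeR no gene of 13974 passed (0%), 546 had an unadjusted p under 0.05, DESeq2 called 30 and edgeR on thinned cells 42. By the main test, differences from adult cells named above were therefore not shown to be particular to the B lineage. Ikzf3 and Igkc were among the genes called by DESeq2 and again after thinning. Cd74, H2-Aa, H2-Eb1 and Iglc1 were among those called after thinning but not by DESeq2. A call here can mean a difference larger or smaller than in the other HPs. On simulated counts with these library sizes and the same spread for every gene, the edgeR test found 81% of 8-fold changes. Apart from the planted changes the simulation held no differences between libraries or cell groups, and genes that vary more were not simulated.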

How the data were processed

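The authors sorted HP cells, made Chromium 3′ libraries with CITE-Seq antibody tags, and counted UMIs with Cell Ranger 3.1.0 on mm10. In Seurat 3.1.5 (R 4.0) they removed cells of the highest UMI and gene counts as putative doublets, cells with many mitochondrial reads and genes of few cells, and named clusters. The deposited values were raw UMI and tag counts, with the mitochondrial fraction per cell. No doublet caller was run here. Libraries were matched to stages through the code in each sample's description. UMIs of B lineage cells were summed per library and tested with edgeR 4.0.16 in R 4.3.3 (TMM, default filter on low counts, quasi-likelihood F test, adjusted p under 0.05), with DESeq2 1.42.0 as an alternative. Each SE given with edgeR is the absolute log2 difference over the square root of F. It restates the test and measures no separate spread. CPM are UMIs of a gene per 1000000 UMIs of the same cells, and with 3′ counting they are not divided by length. On simulated counts with 200 changed genes, 95% of 8-fold changes were found between perinatal and adult cells, 90% for P0 and 88% for E18.5 against E16.5. Every simulated gene had the same spread, so genes that vary more between libraries may be found less often. Bounds against 0 UMIs use 3 counts. The cells and the 13 gene lists were chosen with earlier results of these data known. Genes outside the lists were named for the 10 largest changes each way among those passing with at least 50 CPM and 20 UMIs in the higher group, and 20 by their lowest ratio to the other HPs, without mitochondrial, ribosomal and sex-linked genes and Gm42418. Figures used matplotlib 3.10.9 and tables Python 3.11.15. A few genes of the lists are not reported here.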

Additional observations from a re-analysis of the deposited data

Results flagged for a closer look

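In 10 of 39 sets of the 4 perinatal values examined, 1 library stood apart from the rest by Dixon's ratio at its 95% limit. That limit gives about 1 in 20 for normal values of like samples. Here the libraries differ in stage, most genes were chosen for being called and several sets are mostly 0. The count is therefore a description and is not set against 1 in 20. The values that stood apart at the low end of detection were 0.273 CPM of Chil3, 1.23 CPM of Iglc2 and 0.957 CPM of Hba-a1 at P0, and 0.407 CPM of Fcer2a at E18.5, each against 0 or close to 0 in the others. At E18.5 Iglc3 stood at 8.14 CPM, from 7 cells, and Lars2 at 154 CPM against 41.2 to 52.0 CPM. E16.5 library 1, with 30 B lineage cells, stood apart at 55.1 CPM of Lin28b against 22.6 to 28.1 CPM, at 18.9 CPM of Ighd against 11.4 to 12.3 CPM, and at a cell cycle share of 0.697% of UMIs against 0.505 to 0.534%. E16.5 library 2 stood apart in the summed mast cell markers, with 5663 CPM against 80.3 to 434 CPM.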

How the results depend on the processing

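The count for perinatal against adult cells, 197, was 465 without a filter on low counts, 348 in the deposited B cell clusters and 245 (117 higher, 128 lower) with DESeq2, and leaving out an E16.5 library gave 176 to 422 (422 without library 2). The P0 count of 117 was 7 with DESeq2, 0 after thinning and 27 as a slope over stages. The E18.5 count of 111 was 8 with DESeq2 and 0 after thinning. The count for the perinatal-adult difference in B lineage cells against that in other HPs, 0, was 30 with DESeq2, 2 without a filter and 42 after thinning, and 0 to 1 without an E16.5 library. The E18.5 share was 7.86% without cells under 1000 UMIs. The P0 share was 6.61% after thinning and 6.85% with 5 or more UMIs of 3 genes. The adult share was 17.1%, 14.6%, 22.7% and 21.4% after thinning, under that stricter rule, without cells under 1000 UMIs and without the shallower cells of shared barcodes. H2-Aa at P0 turned to a log2 difference of -0.23 under the stricter rule, and Prss34 to 0.13 in B cell clusters. The cause was not tested. Of the named genes, 19 of 34 kept their call under every alternative for perinatal against adult, and 0 of 35 and 0 of 34 for P0 and E18.5. The alternatives on shared barcodes, and for gene counts on cells under 1000 UMIs, were chosen after seeing the data. No paired analysis was possible because the groups share fewer than 2 replicate numbers. Leaving out an E16.5 library leaves no residual degree of freedom for the stage tests, so that none was run. Depth limits low genes: E16.5 library 1 holds 30 cells, and the median adult cell 3510.0 UMIs.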
